A study of Mus musculus with 18 samples.

Results

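Wildtype J774.1 cells, a mouse cell line with macrophage properties, were treated for 4 h with 0.25 mM 4-Cl-HIPP or with vehicle, and the 2 conditions were compared by RNA-seq. Of the 18 samples of the experiment, 6 carried the labels for this comparison, 3 with 4-Cl-HIPP and 3 with vehicle, and they were taken by these labels alone. 4-Cl-HIPP, or 3-(4-chlorophenyl)-2-(hydroxyimino)propanoic acid, was dissolved in DMSO, and the control cells received PBS/DMSO. The other groups, also of 3 samples each, were wildtype cells with 1.5 mM MTOB and Ctbp1-/-, Ctbp2-/- cells (Ctbp1/2 dKO) with vehicle, MTOB or 4-Cl-HIPP. Knockout cells were made with Cas9 and grown out from single cells, and how many clones of either genotype were sequenced is not given in the sources used here, so genotype and clone cannot be told apart. The comparison asked which transcripts a CTBP dehydrogenase inhibitor changes in cells that contain its target, and the dKO cells were used below only to ask whether the same transcripts moved without it.

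CTBPs are transcriptional corepressors that DNA-binding factors recruit to promoters and enhancers, and they are unusual among corepressors in having a dehydrogenase fold that binds NAD(H). Compounds such as MTOB and 4-Cl-HIPP were designed to fill the substrate pocket of that fold. Macrophages respond to small molecules with a set of well-described programmes, among them metal buffering by metallothioneins, sterol synthesis under the transcription factor SREBP2, TGF-beta signalling through SMAD proteins, and the interferon programme, and the genes of these programmes are described below by their roles.

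The authors' table gave each of 18204 genes as TPM, a measure of transcript abundance per length that is scaled within a sample and holds no sequencing depth, so the depth of each library is unknown. Of these genes, 16383 lay above the lowest 10% by mean normalized count and were tested. Over them, log2(TPM + 1) of replicates correlated with a Pearson r of 0.985 to 0.986 in vehicle and of 0.986 to 0.987 with 4-Cl-HIPP, and samples of different conditions correlated with an r of 0.984 to 0.986. These correlations are across genes, which are not independent replicates. Macrophage identity was checked with 16 markers. The table listed 15 of them, 13 at more than 5 TPM, and their summed TPM was 4407 to 4504 in vehicle and 4289 to 4394 with 4-Cl-HIPP. The listed markers of T cells summed to 1.88 to 6.13 TPM in any of the 6 samples, and those of B cells, neutrophils, epithelial, fibroblast, endothelial and erythroid cells to less than 1 TPM. None of the marker genes had an adjusted p-value below 0.05 (limma). Ctbp1 was at 212, 238 and 204 TPM in vehicle and at 204, 216 and 236 TPM with 4-Cl-HIPP, and Ctbp2 was at 87.8, 93.2 and 96.9 against 88.0, 89.7 and 89.0 TPM, so the levels of both target transcripts overlapped between the conditions.

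The response to 4-Cl-HIPP was small and mostly upward. The conditions were compared with limma on log2(TPM + 1), with Benjamini-Hochberg adjustment over all tested genes. Calls required an adjusted p-value below 0.05 together with a change of more than 1.5-fold. By this rule 23 of 16383 genes were called (0.14%), 18 of them higher (0.11%) and 5 lower (0.0305%). Without the fold limit 60 genes had an adjusted p-value below 0.05 (0.366%), 53 higher (0.324%) and 7 lower (0.0427%). The median log2 fold change of all tested genes was 0.01, and 95% of them lay between -0.47 and 0.56. At an unadjusted p-value below 0.05 there were 1341 genes (8.19%), of which 860 were higher (5.25%). The 53 higher genes had a median log2 fold change of 0.49. Among the called genes were the TGF-beta receptor gene Tgfbr1 and the SMAD-induced gene Pmepa1, the metallothionein gene Mt2, the secreted angiopoietin-like gene Angptl2, the checkpoint receptor gene Pdcd1 and several genes of sugar chain synthesis, while interferon-induced genes were among those that were lower.

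**Figure D1:**
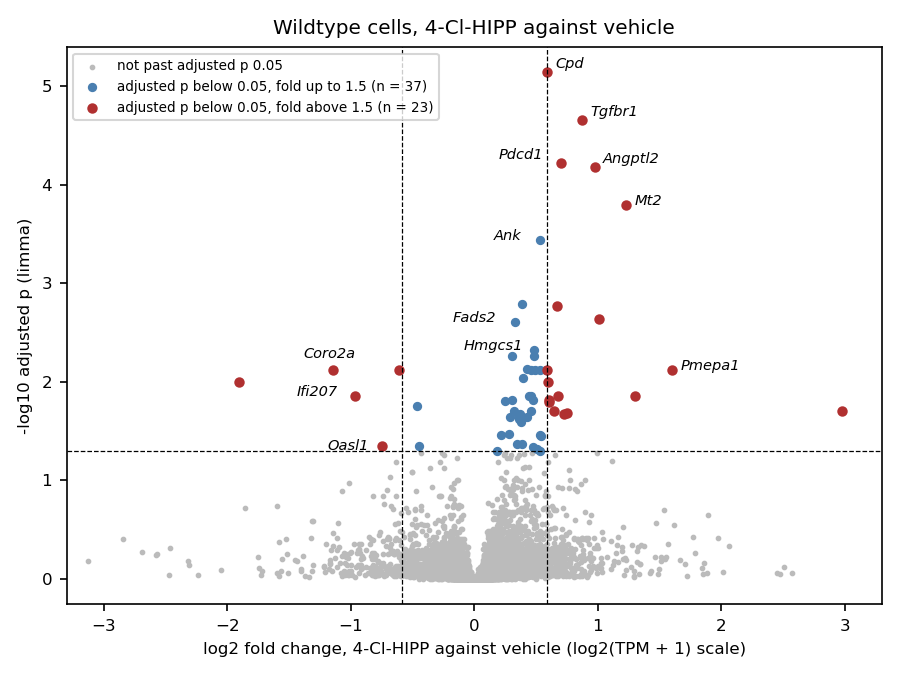
Log2 fold change of 4-Cl-HIPP against vehicle in wildtype cells (horizontal axis, log2(TPM + 1) scale) against the -log10 adjusted p-value from limma (vertical axis) for each tested gene, with 5 genes of larger change beyond the horizontal axis and not past the threshold. Dashed lines mark an adjusted p-value of 0.05 and a fold change of 1.5. The 23 called genes are red and the 37 genes with an adjusted p-value below 0.05 and a smaller fold are blue, and most of both lie on the right.

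The calls differed in how much they rested on single samples. The call of 6 genes held whichever of the 6 samples was left out, namely Tgfbr1, Mt2, Angptl2, Pdcd1, Xylt1 and Arl4c. Without vehicle replicate 3 there were 10 calls, of which 9 were among the 23, and without 4-Cl-HIPP replicate 2 there were 9, of which 8 were among the 23. Leaving out any other sample gave 21 to 23 calls, but only 12 to 18 of these were among the 23, fewest without vehicle replicate 2. Of the 60 genes with an adjusted p-value below 0.05, 14 held whichever sample was left out. With only the 6 compared samples in the fit, 8 of the 23 calls were kept, those of Tgfbr1, Mt2, Angptl2, Pdcd1, Xylt1, Cpd, Nfatc1 and Commd1b. Of the 60 genes, 14 kept an adjusted p-value below 0.05 in that fit, Slc39a10 and Fads1 among them. With a pseudocount of 5 the folds of Pdcd1, Xylt1 and Arl4c fell below the limit (log2 0.53, 0.37 and 0.31).

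**Figure D2:**
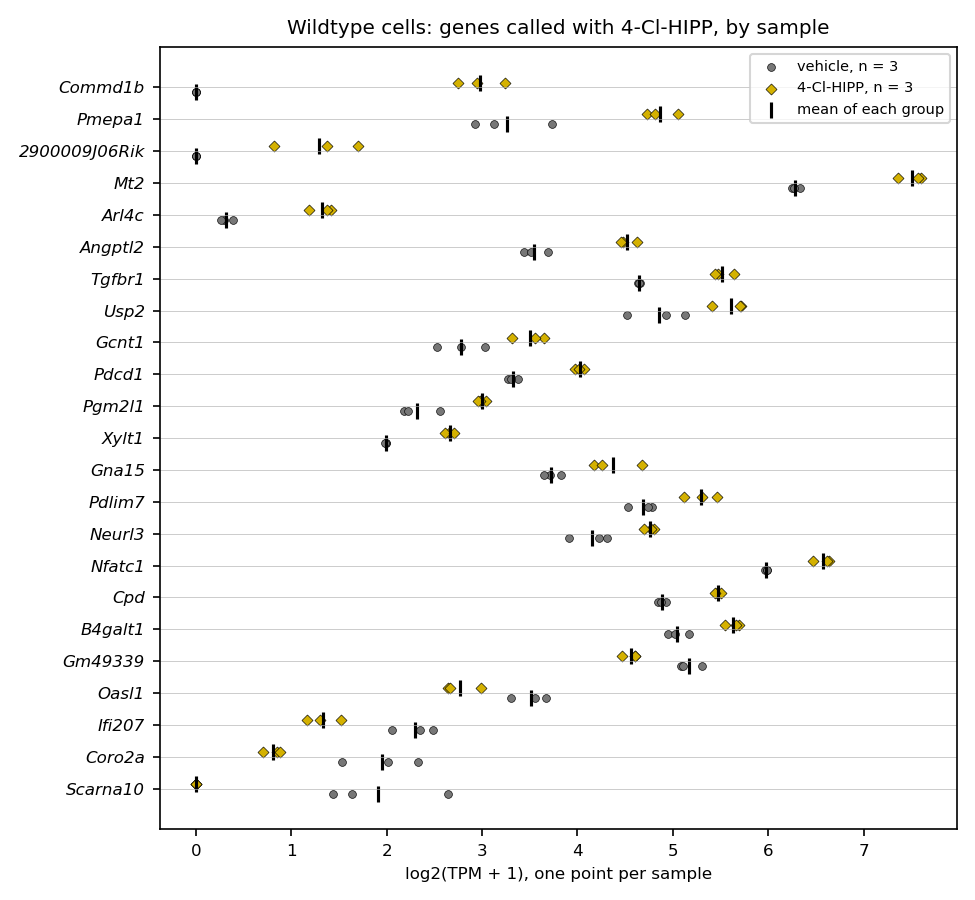
TPM on the log2(TPM + 1) scale (horizontal axis) of the 23 called genes (vertical axis, ordered by log2 fold change), with 1 point per sample for vehicle (grey circles) and 4-Cl-HIPP (yellow diamonds) in wildtype cells and a vertical tick at each group mean. In every gene shown the 3 samples of one condition lie on one side of the 3 samples of the other, Commd1b and 2900009J06Rik are listed at 0 in vehicle, and Scarna10 is listed at 0 with 4-Cl-HIPP.

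Genes of TGF-beta signalling were among the largest changes. TGF-beta ligands bind a type II receptor that phosphorylates the type I receptor encoded by Tgfbr1, which in turn phosphorylates SMAD proteins. Tgfbr1 (chr4:47353134-47414931, + strand, GRCm39) was at 23.9, 24.3 and 24.0 TPM in vehicle and at 43.3, 48.8 and 42.6 TPM with 4-Cl-HIPP. All 3 treated samples lay far above the vehicle samples, which were within 1 TPM of each other. The log2 fold change was 0.87 (SE 0.07, 95% confidence interval 0.72 to 1.02, adjusted p = 2.21e-05, limma).

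Pmepa1 (chr2:173066251-173118444, - strand), which encodes a membrane protein that is induced by SMADs and restrains their activation by the receptor, was at 6.63, 12.3 and 7.71 TPM in vehicle and at 25.5, 27.0 and 32.1 TPM with 4-Cl-HIPP. Vehicle replicate 2 was the highest of its group and still below every treated sample. Pmepa1 had the largest log2 fold change among called genes detected in every sample, 1.60 (SE 0.24, adjusted p = 0.00763, limma), and its call was lost without vehicle replicate 3 (adjusted p = 0.05004, limma) and with only the 6 compared samples in the fit (adjusted p = 0.192). Skil, which encodes the SMAD corepressor SnoN, was at 37.2, 35.2 and 37.7 TPM against 44.1, 53.2 and 45.4 TPM. Its log2 fold change was 0.36 (SE 0.07, adjusted p = 0.0230, limma), which was lost without any single vehicle sample (adjusted p = 0.0727 to 0.107, limma) and without 4-Cl-HIPP replicate 2 (adjusted p = 0.0888, limma).

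A list of 37 receptors, ligands and feedback genes of the pathway had 31 members tested. Tgfbr1, Pmepa1 and Skil passed the test with higher values, against 0.324% of all tested genes. There were 0 members lower at the threshold, and 28 did not pass. The groups did not overlap in 9 members with higher values with 4-Cl-HIPP, among them Ski (log2 fold change 0.26, adjusted p = 0.0828, limma), a relative of SnoN. Over all tested genes 7.65% did not overlap in that direction. The inhibitory SMAD gene Smad7 was at 3.86, 3.74 and 3.91 TPM against 4.55, 4.35 and 4.70 TPM (log2 fold change 0.19, adjusted p = 0.835, limma). The ligand gene Tgfb1 was at 129 to 136 TPM in vehicle and 125 to 134 TPM with 4-Cl-HIPP. The list's median log2 fold change was 0.05, against 0.01 for all genes, so that its changes were those of a few members.

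Mt2 encodes a metallothionein, a small cysteine-rich protein that binds zinc and other metals, and it is induced when the sensor MTF1 finds free zinc. It was at 79.5, 74.9 and 76.0 TPM in vehicle and at 193, 189 and 164 TPM with 4-Cl-HIPP. The log2 fold change was 1.23 (SE 0.12, 95% confidence interval 0.97 to 1.49, adjusted p = 0.000161, limma), and the groups lay far apart. Mt2 (chr8:94898819-94900207, + strand) shares 783 exonic bases with the antisense lncRNA gene Gm45774, and since the library kit did not mark strand, reads of the pair cannot be told apart there. Its neighbour Mt1 was at 338, 392 and 355 TPM against 429, 405 and 428 TPM. These groups did not overlap, and the log2 fold change of Mt1 was 0.22 (SE 0.06, adjusted p = 0.219, limma).

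Letters of the metal response element, searched as TGCGCNC or TGCACNC on both strands, were in 26.2% of the 250-base windows upstream of the canonical transcript's start in all tested protein-coding genes and in 9 of 22 windows (40.9%) of the list of metallothioneins and zinc transporters. In Mt2 this start lies inside the annotated gene, whose other transcripts begin further upstream. The letters are shown for the metallothionein genes as stretches of 30 bases on GRCm39, + strand, with the matching letters in capitals.
Mt2, chr8:94899012-94899041: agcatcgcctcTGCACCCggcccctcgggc
Mt2, chr8:94899102-94899131: cggatcgcagacccttTGCGCTCagctcct
Mt1, chr8:94905680-94905709: gggcggtcccgctgTGCACACtggcgctcc
A match is a string of letters and not a measured binding site, and here Mt2 had 2 matches and Mt1 had 1.

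Of the zinc transporter genes 1 passed the test. Slc39a10, which encodes the zinc importer ZIP10, was at 27.5, 26.0 and 25.8 TPM in vehicle and at 18.9, 18.4 and 19.2 TPM with 4-Cl-HIPP. Every treated sample was below every vehicle sample, and the log2 fold change was -0.47 (SE 0.08, adjusted p = 0.0179, limma), though leaving out any 1 sample moved the adjusted p-value to between 0.0563 and 0.0888 (limma). The zinc exporter gene Slc30a1, also an MTF1 target, was at 7.32, 6.39 and 6.49 TPM against 8.24, 7.52 and 7.17 TPM, with overlap, and Mtf1 itself was at 10.7 to 14.2 TPM against 11.8 to 12.4 TPM. Of 22 tested members of this list, 1 rose (Mt2), 1 fell (Slc39a10) and 20 did not pass. Of all tested genes 0.324% passed with higher and 0.0427% with lower values. A fitted log2 fold change above 0 was found in 17 members, against 53.3% of all tested genes. Groups did not overlap in 6 members with higher values, against 7.65% of all, and in 1 with lower values, against 4.94%. The list's median log2 fold change was 0.06, against 0.01 for all genes.

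Genes of sterol synthesis were higher by small amounts in nearly the whole pathway. When membrane sterol is low, SREBP2 is released from the endoplasmic reticulum and induces the enzymes from acetyl-CoA to cholesterol. Of 25 tested members, 24 had a fitted log2 fold change above 0, against 53.3% of all tested genes, and the groups did not overlap in 13 members, all higher with 4-Cl-HIPP, against 7.65% of all tested genes. The list's median log2 fold change was 0.24, the largest median of the 29 lists examined, and it stayed between 0.20 and 0.26 under the 15 other settings tried. Singly, 4 members passed the test, all higher, against 0.324% of all tested genes. The other 21 did not pass, and none of the 25 reached a fold change of 1.5.

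Hmgcs1, which encodes the cytosolic HMG-CoA synthase, was at 36.2, 39.9 and 39.4 TPM in vehicle and at 56.0, 51.95 and 54.6 TPM with 4-Cl-HIPP. Its log2 fold change was 0.48 (SE 0.07, adjusted p = 0.00477, limma). It held whichever sample was left out but not with only the 6 compared samples in the fit (adjusted p = 0.103, limma). Mvd, the mevalonate diphosphate decarboxylase gene, was at 33.4, 26.7 and 27.6 TPM against 39.7, 39.2 and 42.0 TPM (log2 fold change 0.46, adjusted p = 0.0199, limma). For the isopentenyl diphosphate isomerase gene Idi1 the values were 59.2, 54.4 and 56.3 against 70.7, 70.8 and 65.1 TPM (0.28, adjusted p = 0.0342, limma), and for Sqle, which encodes squalene epoxidase, a rate-limiting enzyme of the later pathway, 60.9, 64.7 and 61.6 against 77.7, 80.0 and 73.9 TPM (0.30, adjusted p = 0.0153, limma). In all 4 genes the groups were apart, but the test of Mvd, Idi1 and Sqle was lost without 4-Cl-HIPP replicate 1 (adjusted p = 0.0603 to 0.132, limma), without 4-Cl-HIPP replicate 2 (adjusted p = 0.0688 to 0.167) or without vehicle replicate 3 (adjusted p = 0.0783 to 0.128). It was also lost for Sqle without vehicle replicate 1 (adjusted p = 0.0727, limma), for Mvd without vehicle replicate 2 or 4-Cl-HIPP replicate 3 (adjusted p = 0.0942 and 0.0912), and for Idi1 without vehicle replicate 2 (adjusted p = 0.134). Hmgcs1 and Mvd share 557 and 559 exonic bases with antisense lncRNA genes, and Sqle shares 470 with Washc5 on the opposite strand.

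Other members were higher without passing the test. Insig1, which encodes a sterol sensor that retains SREBPs, was at 38.3, 35.8 and 36.9 TPM in vehicle and at 41.0, 42.9 and 48.1 TPM with 4-Cl-HIPP. These groups did not overlap, and the log2 fold change was 0.24 (adjusted p = 0.268, limma). The lowest member was Tmem97 (-0.06), a regulator of cholesterol transport.

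The delta-5 and delta-6 fatty acid desaturase genes Fads1 and Fads2, which lie side by side on chromosome 19 and act in the synthesis of polyunsaturated fatty acids, were also higher. Fads2 (chr19:10038130-10079203, - strand) was at 163, 161 and 170 TPM in vehicle and at 202, 219 and 202 TPM with 4-Cl-HIPP (log2 fold change 0.33, SE 0.04, adjusted p = 0.00251, limma). Fads1 (chr19:10160167-10174241, + strand) was at 129, 127 and 124 TPM against 159, 155 and 155 TPM (0.30, SE 0.04, adjusted p = 0.00555, limma). Both changes were small beside the fold limit but large beside the spread between replicates, and both held whichever sample was left out. With only the 6 compared samples in the fit, Fads1 held (adjusted p = 0.0407) and Fads2 did not (adjusted p = 0.140, limma). Fads1 shares 516 exonic bases with the antisense lncRNA gene Gm59252.

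Upstream windows of these genes are shown because the sterol list was rich in one motif. CCAAT, the letters that the factor NF-Y binds, was found on either strand of the 250-base window in 19 of 25 genes of the sterol list (76.0%), against 36.8% of all tested protein-coding genes and 35.3% of the protein-coding genes that passed the test with higher values. The sterol regulatory element, searched as TCACNCCAC on both strands, was in 1 of 25 windows, that of Hmgcs1, against 1.01% of all. Among the protein-coding genes that passed the test with higher values it was in 3 of 51 windows (5.88%), those of Hmgcs1, Mt2 and Lmna. The stretches are on GRCm39, 5′ to 3′ on the gene's strand, with the matching letters or their reverse complement in capitals. In Hmgcs1 the sterol regulatory element lay upstream of the CCAAT letters, and Idi1 had 2 matches within a few bases. The canonical start lies inside the annotated gene in Hmgcs1, Sqle and Idi1.
Hmgcs1, chr13:120151740-120151769, + strand: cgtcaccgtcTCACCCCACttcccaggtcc
Hmgcs1, chr13:120151830-120151859, + strand: tccccgcctctcATTGGctgaaagcggatc
Hmgcs1, chr13:120151885-120151914, + strand: ctgagtcccgggATTGGcagaggtagccgc
Sqle, chr15:59186753-59186782, + strand: gcgccgcccgccATTGGacaaacgctctat
Sqle, chr15:59186807-59186836, + strand: gtgcgcgctctcATTGGttcggacggcgtg
Idi1, chr13:8935864-8935893, + strand: ggcttgtgctagATTGGcaATTGGctggag
Fads2, chr19:10079204-10079453, - strand: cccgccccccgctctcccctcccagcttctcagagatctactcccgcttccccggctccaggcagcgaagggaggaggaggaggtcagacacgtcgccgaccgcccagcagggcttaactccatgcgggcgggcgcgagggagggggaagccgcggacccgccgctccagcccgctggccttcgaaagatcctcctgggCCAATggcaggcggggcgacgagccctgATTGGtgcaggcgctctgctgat
The windows of Mvd and Fads1 held no match of CCAAT.

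Other lipid genes gave less. Cpt1a, which encodes the enzyme that commits fatty acids to mitochondrial oxidation, was at 11.7, 8.89 and 11.5 TPM against 16.8, 15.7 and 15.0 TPM (log2 fold change 0.53, adjusted p = 0.0349, limma) and was the 1 of 16 members of the PPAR and lipid uptake list to pass, though not when vehicle replicate 2 or 3 or any 4-Cl-HIPP sample was removed (adjusted p = 0.0633 to 0.136, limma). The scavenger receptor gene Cd36 of the same list was at 3.04, 2.56 and 4.24 TPM against 5.10, 8.47 and 4.69 TPM (0.71, adjusted p = 0.309, limma), and the lipid droplet gene Plin2 at 12.9, 13.7 and 15.8 against 21.3, 21.2 and 17.3 TPM (0.47, adjusted p = 0.124, limma). Of the 16 tested members of the list of LXR targets and lipid efflux 0 passed the test, and the median of that list was 0.10. Genes outside the list, Arl4c among them, were not counted as LXR targets. Of all tested genes 0.366% passed in either direction.

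Interferon-induced genes tended to lower values with 4-Cl-HIPP, and 2 passed the test. These genes are induced by type I interferon through the STAT and IRF9 complex and encode sensors and effectors against viruses, and unstimulated macrophages hold them at a low tonic level. Ifi207 (chr1:173550990-173569383, - strand), of the IFI200 family of nucleic acid binding proteins, was at 4.62, 4.11 and 3.15 TPM in vehicle and at 1.25, 1.47 and 1.87 TPM with 4-Cl-HIPP. Its log2 fold change was -0.97 (SE 0.16, adjusted p = 0.0141, limma). Ifi207 belongs to a cluster of similar genes, among which the quantification may have split reads, and its call was lost without vehicle replicate 1 or 2 or 4-Cl-HIPP replicate 1 or 2 (adjusted p = 0.0563 to 0.0704, limma).

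Oasl1, an oligoadenylate synthetase-like gene whose product restrains translation of Irf7, was at 8.90, 10.8 and 11.8 TPM against 5.26, 5.34 and 6.93 TPM. The groups did not overlap, and the log2 fold change was -0.75 (SE 0.15, adjusted p = 0.0449, limma). The call was lost without vehicle replicate 2 or 3 or 4-Cl-HIPP replicate 1 or 2 (adjusted p = 0.134 to 0.187, limma).

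Of 70 tested interferon-induced genes, 52 had a fitted log2 fold change below 0 and 16 above 0, against 53.3% of all tested genes above 0. The 2 that passed were lower, against 0.0427% of all tested genes, 68 did not pass the test and 0 passed with higher values. The groups did not overlap in 17 members, all lower with 4-Cl-HIPP, against 4.94% of all genes lower without overlap. The median log2 fold change was -0.12, and it lay between -0.17 and -0.07 under the other settings. Mx2, a dynamin-like antiviral GTPase gene, had the lowest value (-1.07, adjusted p = 0.128, limma). Ifit1, which encodes a sensor of foreign RNA caps, was at 2.00, 0.636 and 1.17 TPM against 0.379, 0.275 and 0.395 TPM (-0.71, adjusted p = 0.392, limma). Usp18, the gene of the enzyme that removes ISG15 from proteins, was at 7.47, 6.32 and 6.88 against 5.53, 4.17 and 4.53 TPM (-0.46, adjusted p = 0.288), and the transcription factor gene Irf7 at 9.37, 10.1 and 9.55 against 6.27, 7.08 and 8.85 TPM (-0.35, adjusted p = 0.591, limma). Isg15 itself overlapped, at 7.07, 7.72 and 2.51 TPM in vehicle and 3.34, 4.07 and 5.49 TPM with 4-Cl-HIPP.

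The core letters of the interferon-stimulated response element, searched on both strands as a pair of GAAA with any 2 bases between them, were in 27 of 70 windows of the list (38.6%) and in 3.02% of the windows of all tested protein-coding genes. Of the 2 members that fell, Ifi207 held 1 match and Oasl1 held none in this window. It is shown for Ifi207 on GRCm39, - strand, with the match in capitals.
Ifi207, chr1:173569397-173569426: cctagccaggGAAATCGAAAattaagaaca

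**Figure D3:**
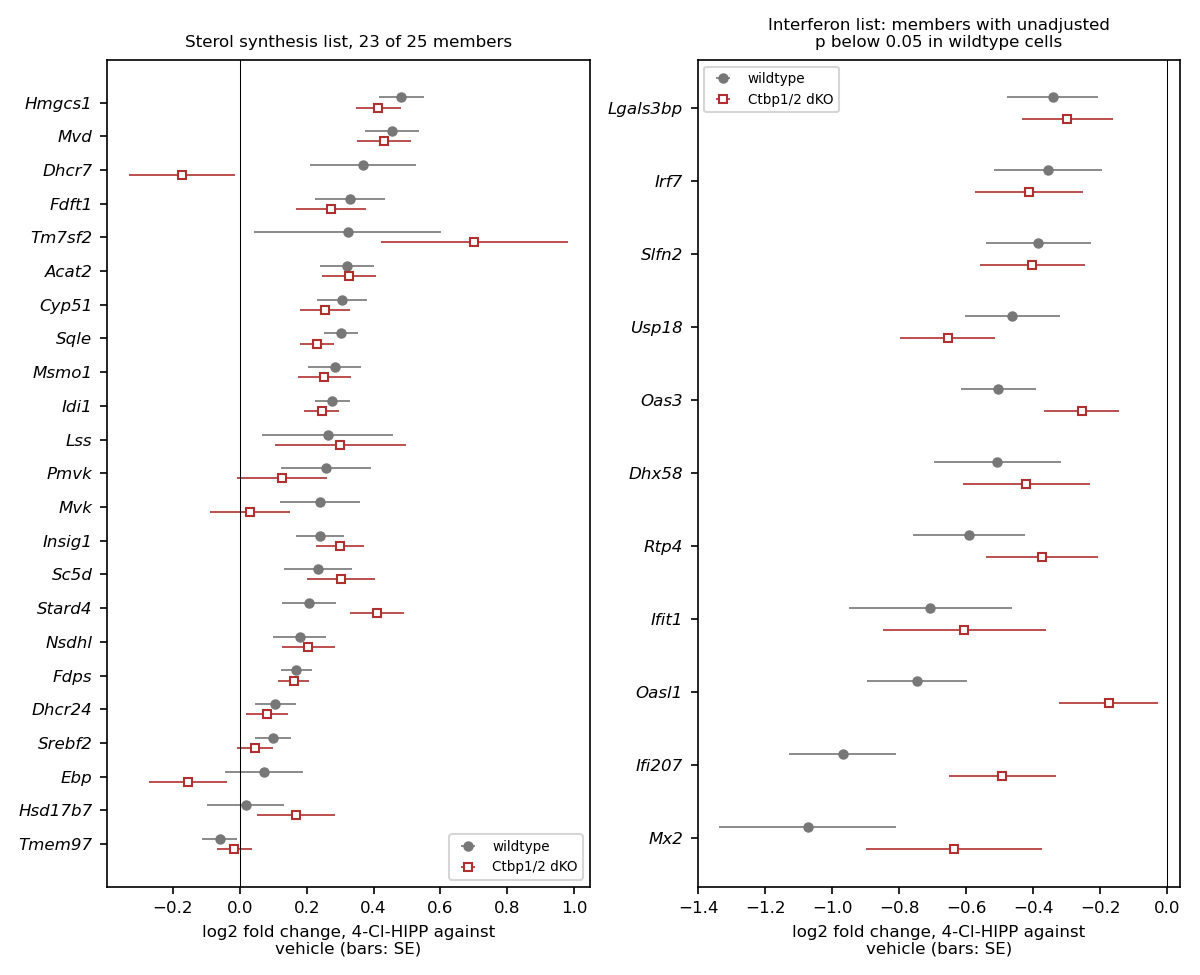
Log2 fold change of 4-Cl-HIPP against vehicle (horizontal axis, bars show 1 SE) in wildtype cells (grey circles) and Ctbp1/2 dKO cells (open red squares) for 23 of the 25 tested members of the sterol synthesis list (left) and for the 11 members of the interferon list with an unadjusted p-value below 0.05 in wildtype cells (right). The sterol list members lie mostly between 0 and 0.5 in both genotypes, and the members on the right, which were picked by their wildtype values, lie below 0 in both.

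Immune signalling genes were changed one by one. Pdcd1, the gene of the inhibitory receptor PD-1, was at 9.40, 8.68 and 8.91 TPM in vehicle and at 14.8, 15.8 and 15.2 TPM with 4-Cl-HIPP. The log2 fold change was 0.70 (SE 0.06, adjusted p = 6.1e-05, limma), with both groups tight and far apart. Pdcd1 was the 1 of 16 tested inhibitory receptor genes to pass, against 0.324% of all tested genes that passed with higher values. The gene of its ligand, Cd274, was at 0.604 TPM or less in all 6 samples. Nfatc1, which encodes a calcium-responsive transcription factor that drives osteoclast formation from macrophage precursors, was at 61.4, 62.4 and 62.3 TPM against 87.8, 98.8 and 97.2 TPM (0.60, adjusted p = 0.0101, limma). Without vehicle replicate 3 or 4-Cl-HIPP replicate 2 its adjusted p-value was 0.05004 and 0.0639 (limma), and without 4-Cl-HIPP replicate 3 its fold fell below the limit (log2 0.579). Gna15, the gene of a G protein alpha subunit of blood cells, was at 12.1, 11.5 and 13.2 TPM against 17.1, 24.6 and 18.1 TPM (0.64, adjusted p = 0.0199, limma), and Neurl3, a ubiquitin ligase gene, at 18.9, 14.1 and 17.7 against 26.9, 26.2 and 25.04 TPM (0.61, adjusted p = 0.0159, limma). Both of these lost the call without vehicle replicate 2 or 3 or 4-Cl-HIPP replicate 2, Gna15 also without vehicle replicate 1 and Neurl3 without 4-Cl-HIPP replicate 1 (adjusted p = 0.05004 to 0.0865, limma).

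Of 40 cytokine, chemokine and NF-kB feedback genes, 3 passed the test with higher values, against 0.324% of all tested genes. All 3 rose by less than the fold limit. Cxcl16, a membrane-bound chemokine and scavenger receptor gene, was at 71.0, 68.6 and 71.2 TPM against 85.3, 97.4 and 93.5 TPM (log2 fold change 0.38, adjusted p = 0.00165, limma), but shares 2213 exonic bases with Med11 and 2132 with Zmynd15 on the opposite strand. Socs3, the feedback inhibitor of STAT3 signalling, was at 8.11, 9.11 and 7.33 TPM against 12.1, 12.1 and 12.5 TPM (0.53, adjusted p = 0.00763, limma; adjusted p = 0.05004 without vehicle replicate 3). The lipoprotein receptor gene Tlr2 was at 78.6, 79.7 and 79.3 against 94.9, 105 and 91.0 TPM (0.29, adjusted p = 0.0230, limma), which was lost on removal of any sample but 4-Cl-HIPP replicate 3 (adjusted p = 0.0603 to 0.114, limma). Tnf went the other way without passing, at 73.6, 62.2 and 60.05 TPM against 48.1, 56.7 and 47.2 TPM (-0.36, adjusted p = 0.0754, limma), and Ccl2 was listed at 0 in all 6 samples.

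Secreted and surface proteins were represented by Angptl2, Pdgfb, Plau, Cpd and Ank. Angptl2 (chr2:33105946-33138252, + strand), an angiopoietin-like factor that promotes inflammation, was at 9.84, 11.9 and 10.4 TPM in vehicle and at 21.2, 23.8 and 21.0 TPM with 4-Cl-HIPP. The log2 fold change was 0.97 (SE 0.09, adjusted p = 6.69e-05, limma). The smallest adjusted p-value of all genes belonged to Cpd, which encodes a membrane carboxypeptidase, at 29.4, 27.8 and 28.3 TPM against 43.1, 44.4 and 42.6 TPM (0.59, SE 0.04, adjusted p = 7.27e-06, limma), and its fold lay so close to the limit that the call, though not the adjusted p-value, was lost without vehicle replicate 2 or 3 or 4-Cl-HIPP replicate 2 (log2 0.572 to 0.584). Ank, the gene of a transporter that exports ATP and pyrophosphate, was at 293, 283 and 283 TPM against 388, 447 and 410 TPM (0.53, SE 0.06, adjusted p = 0.000367, limma). Pdgfb, a platelet-derived growth factor subunit, was at 28.5, 24.7 and 26.4 against 38.8, 38.3 and 36.1 TPM (0.49, adjusted p = 0.00763, limma), and Plau, the urokinase gene, at 26.1, 30.4 and 31.5 against 40.3, 46.3 and 46.3 TPM (0.58, adjusted p = 0.00763, limma; adjusted p = 0.0572 without 4-Cl-HIPP replicate 2). The membrane protein gene Emp1 was at 69.0, 61.1 and 59.5 TPM against 82.8, 90.3 and 88.2 TPM (0.46, adjusted p = 0.00763, limma), and lost this without vehicle replicate 3 or 4-Cl-HIPP replicate 2 (adjusted p = 0.05004 and 0.0572).

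Xylt1, B4galt1 and Gcnt1 encode enzymes that build sugar chains, and they were grouped after their values were seen. Xylt1, which starts glycosaminoglycan chains by adding xylose to core proteins, was at 2.99, 2.97 and 2.96 TPM against 5.30, 5.13 and 5.54 TPM (log2 fold change 0.67, SE 0.08, adjusted p = 0.00172, limma). Its paralog Xylt2 overlapped between the groups, at 9.29 to 11.6 TPM and 7.09 to 15.2 TPM. Xylt1 was the 1 of 22 members of the glycosaminoglycan list to pass, against 0.324% of all tested genes that passed with higher values. Chst3, a chondroitin sulfotransferase gene that was not on this list, also passed (0.53, adjusted p = 0.04999, limma). It lost this without any sample but 4-Cl-HIPP replicate 1 (adjusted p = 0.0595 to 0.205, limma). B4galt1, a galactosyltransferase of the Golgi, was at 29.8, 35.1 and 31.4 TPM against 45.6, 50.9 and 49.7 TPM (0.59, adjusted p = 0.00763, limma). Gcnt1, which branches O-linked chains, was at 7.15, 4.75 and 5.88 TPM against 11.5, 10.7 and 8.97 TPM (0.73, adjusted p = 0.0211, limma). The call of Gcnt1 was lost without vehicle replicate 2 or 3 or 4-Cl-HIPP replicate 1 or 2 (adjusted p = 0.0906 to 0.114, limma), and that of B4galt1 without vehicle replicate 1 or 3 or 4-Cl-HIPP replicate 2 or 3 (log2 0.538 to 0.575, adjusted p = 0.0392 to 0.0572).

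Genes of the cytoskeleton and of adhesion moved in both directions, and of those that passed the test only Coro2a was lower. Coro2a, a coronin gene whose product binds actin and the NCoR corepressor complex, was at 3.03, 1.897 and 4.01 TPM in vehicle and at 0.798, 0.630 and 0.847 TPM with 4-Cl-HIPP. It was the largest fall among genes detected in every sample that passed, at -1.14 on the log2 scale (SE 0.18, adjusted p = 0.00763, limma), and was lost without vehicle replicate 3 (-0.96, adjusted p = 0.05004) or 4-Cl-HIPP replicate 2 (-1.09, adjusted p = 0.0572, limma). It shares 615 exonic bases with the antisense lncRNA gene Gm16731. Itga5, the fibronectin receptor subunit, was at 24.2, 22.5 and 21.2 TPM against 29.2, 32.3 and 28.2 TPM (0.39, adjusted p = 0.0428, limma; 0.0551 to 0.193 with any sample left out). The formin gene Fmnl3 was at 26.9, 29.3 and 32.3 against 40.3, 42.6 and 42.0 TPM (0.49, adjusted p = 0.00555, limma), and Pdlim7, which links actin to kinases, at 26.6, 22.2 and 25.7 against 38.4, 43.2 and 33.6 TPM (0.61, adjusted p = 0.0154, limma; 0.0524 to 0.0886 without vehicle replicate 2 or 3 or 4-Cl-HIPP replicate 1 or 2). Spata13 was at 18.1, 20.6 and 21.0 TPM against 27.1, 26.2 and 28.1 TPM (0.43, adjusted p = 0.00745, limma) and held whichever sample was left out. Of 34 members of the actin and adhesion list, Itga5 rose, Coro2a fell and 32 did not pass. Over all tested genes 0.324% passed with higher and 0.0427% with lower values. Groups did not overlap in 8 members with higher and 8 with lower values, against 7.65% and 4.94% of all tested genes. Fmnl3, Pdlim7 and Spata13 were not on the list and were grouped here after their values were seen. Actb was at 3166, 3348 and 3366 TPM in vehicle and 2987, 3039 and 3009 TPM with 4-Cl-HIPP (-0.13, adjusted p = 0.0998, limma).

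Arl4c, a small GTPase gene that was on none of the gene lists, was at 0.308, 0.229 and 0.205 TPM against 1.67, 1.59 and 1.28 TPM. Its log2 fold change was 1.01 (SE 0.13, adjusted p = 0.00229, limma), a value that the pseudocount makes smaller at so low a level. The call was lost with only the 6 compared samples in the fit (adjusted p = 0.0988, limma). Usp2, a ubiquitin hydrolase gene with a circadian rhythm, was at 34.1, 29.5 and 21.9 TPM against 51.4, 41.6 and 51.1 TPM (0.75, adjusted p = 0.0208, limma; 0.0563 to 0.0972 without vehicle replicate 2 or 3 or 4-Cl-HIPP replicate 1 or 3). It shares 890 exonic bases with the antisense lncRNA gene Gm39325. Pgm2l1, which makes glucose 1,6-bisphosphate, was at 3.54, 4.90 and 3.66 against 7.26, 6.89 and 6.80 TPM (0.68, adjusted p = 0.0141, limma; 0.0603 to 0.0829 without vehicle replicate 1 or 3 or 4-Cl-HIPP replicate 1 or 2). Mitf, a transcription factor gene of macrophages and osteoclasts, was at 11.1, 11.5 and 10.1 TPM against 14.3, 17.0 and 14.9 TPM (0.46, adjusted p = 0.0141, limma). It was among the 2 of 36 lysosomal and TFEB target genes to pass, both higher, against 0.324% of all tested genes. Mitf did not pass without vehicle replicate 3 or 4-Cl-HIPP replicate 2 (adjusted p = 0.0864 and 0.0803, limma).

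Another 15 genes were higher at an adjusted p-value below 0.05 with log2 fold changes of 0.19 (Niban2) to 0.54 (Fmn1, a formin gene). They included Chst3, a chondroitin sulfotransferase gene, the integrin subunit gene Itgb5, the nuclear lamina gene Lmna and the noncoding gene Neat1, a scaffold of paraspeckles. The others were Epb41l2, Megf9, Klhl25, Arhgap45, Scarb2, Clip2, Myo10, Kif21b and Creb3l2, and all 15 lost the adjusted p-value without at least 1 of the samples.

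A few calls concerned genes listed at 0 in one condition or with shared sequence. Commd1b was listed at 0 in the 3 vehicle samples and at 6.74, 5.70 and 8.44 TPM with 4-Cl-HIPP, and its exons share 2452 bases with B3gnt2 and 294 with Commd1 on the same strand. 2900009J06Rik, a noncoding gene, was listed at 0 in vehicle and at 0.762, 2.25 and 1.59 TPM with 4-Cl-HIPP. In the other direction the small Cajal body RNA gene Scarna10, which lies within Ncapd2, was at 2.10, 5.26 and 1.71 TPM in vehicle and listed at 0 with 4-Cl-HIPP, as was Gm11957. Gm49339 was at 32.9, 38.7 and 33.6 TPM against 23.3, 21.2 and 23.3 TPM (log2 fold change -0.61, adjusted p = 0.00763, limma), and shares 1846 exonic bases with the inhibitory receptor gene Lilrb4a, which was at 20.0, 16.5 and 13.7 against 11.6, 12.9 and 11.4 TPM (adjusted p = 0.617, limma). The call of Gm49339 was lost without vehicle replicate 2 (log2 -0.538) or 4-Cl-HIPP replicate 2 (adjusted p = 0.0572, limma), that of Scarna10 without 4-Cl-HIPP replicate 2 (adjusted p = 0.0572), that of Commd1b without any single sample (adjusted p = 0.0697 to 0.0895) and that of 2900009J06Rik without any sample but 4-Cl-HIPP replicate 1 (adjusted p = 0.0525 to 0.0758). Of the 60 genes with an adjusted p-value below 0.05, 37 share exonic bases with another annotated gene and 10 share at least 500 bases, and the library kit did not mark strand.

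Most stress and metabolic programmes gave no gene that passed. Among 28 NRF2 antioxidant genes, 24 iron and heme genes, 27 amino acid response and ATF4 targets, 21 unfolded protein response genes, 18 heat shock chaperones and 6 aryl hydrocarbon receptor targets, 0 had an adjusted p-value below 0.05 in either direction (limma), with 4, 0, 5, 0, 2 and 1 members higher and 0, 1, 2, 1, 1 and 0 lower at an unadjusted p-value below 0.05. Over all tested genes 5.25% were higher at this level and 8.19% differed in either direction. Hmox1, the gene of heme oxygenase 1, was at 48.1, 49.7 and 51.5 TPM against 46.7, 48.7 and 52.1 TPM, with a log2 fold change of -0.02 (SE 0.07). Txnrd1, a thioredoxin reductase gene and NRF2 target, was at 166 to 173 TPM against 156 to 165 TPM, and Atf4 at 193 to 205 TPM against 187 to 207 TPM. The median log2 fold changes of these lists lay between -0.02 and 0.07.

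Nor did a gene pass among 31 glycolysis and hypoxia genes, 18 hydroxyacid dehydrogenases and keto acid enzymes, 28 members of the CTBP corepressor complex and its recruiting factors, 47 translation factors, 37 immediate early and ERK feedback genes, 15 glucocorticoid and cAMP responsive genes, 34 p53 targets and apoptosis genes, 33 G1-S and 30 G2-M genes, 35 respiratory chain subunits and 13 mitochondrially encoded genes. At an unadjusted p-value below 0.05 these lists had 0, 0, 4, 3, 6, 3, 5, 4, 0, 1 and 0 members higher and 3, 2, 0, 4, 4, 1, 2, 2, 3, 0 and 0 lower, in the same order (limma). The shares of all tested genes beside these counts were again 5.25% higher and 8.19% in either direction. Phgdh, whose product shares the dehydrogenase fold of CTBPs, was at 328, 289 and 341 TPM against 355, 342 and 333 TPM. Of 17 macrophage lineage transcription factors Mitf alone passed, against 0.366% of all tested genes in either direction. The immediate early gene Fos was at 6.87, 6.28 and 8.23 TPM against 13.8, 7.19 and 9.02 TPM, with overlap.

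**Figure D4:**
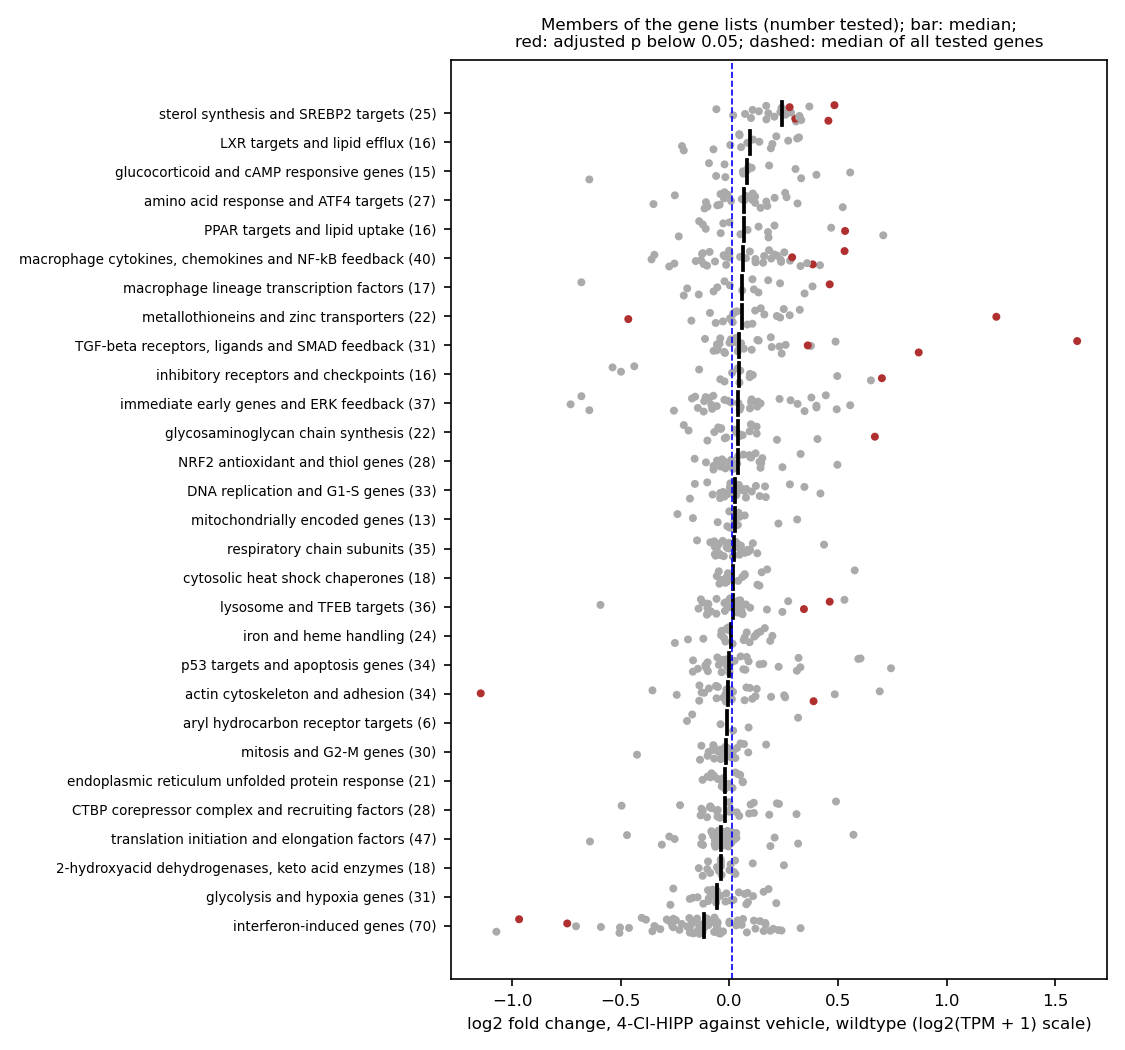
Log2 fold change of 4-Cl-HIPP against vehicle in wildtype cells (horizontal axis) for the tested members of 29 gene lists (vertical axis, ordered by median, number tested in brackets), with 1 point per gene, a black bar at each list's median and a dashed line at the median of all tested genes. Red points passed an adjusted p-value of 0.05, the sterol list has the highest median at 0.24 and the interferon list the lowest at -0.12.

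The 10 largest changes without a call, by the rule given next, belonged to variable noncoding genes and pseudogenes. Protein-coding genes outside these 10, such as Mx2 (-1.07) and Cd36 (0.71), also changed by more than 1.5-fold without a call. Among genes with a mean TPM of at least 5, no overlap between the groups, a fold above 1.5 and no call, the 10 of largest change were Gm42687, Gm49832, Snora73b, Gm6055, Rps26-ps1, Gpx4-ps2, Snhg4, Gm48274, Gm43096 and Gm43444. Gm42687 was at 35.8, 33.2 and 78.5 TPM in vehicle and listed at 0 with 4-Cl-HIPP, and it had an adjusted p-value of 0.276 (limma). Its mean normalized count over all samples was only 0.714, so these TPM rest on few reads. That count was 1.58 for Snora73b and 28.1 for Snhg4. Gm49832 ranged from 0 to 213 TPM within the vehicle group alone. The adjusted p-values of the 10 genes were between 0.202 and 0.822 (limma).

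In Ctbp1/2 dKO cells most of the genes that rose with 4-Cl-HIPP in wildtype cells were also higher. Ctbp1 was at 24.4, 25.2 and 25.6 TPM in dKO vehicle samples and at 22.4, 31.5 and 19.7 TPM with 4-Cl-HIPP, far below the wildtype samples. Ctbp2 was at 73.5, 74.9 and 79.4 TPM and at 71.7, 75.6 and 71.0 TPM, below the wildtype samples but not absent. The knockouts were made by introducing a frameshift and a premature stop, and the authors checked the loss of both proteins by western blot, so the RNA level is no check of the protein. The dKO comparison shares no sample with the wildtype comparison, though both take their spread from the same fit.

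In dKO cells 82 genes passed an adjusted p-value of 0.05 with 4-Cl-HIPP (0.501%), 66 of them higher (0.403%) and 16 lower (0.0977%, limma). Of the 53 genes higher in wildtype cells, 51 had a log2 fold change above 0 in dKO cells, against 51.9% of all genes, 49 were higher without overlap, against 8.01% of all genes, and 34 passed the test there. Their median log2 fold change was 0.49 in wildtype and 0.42 in dKO cells. Of the 7 lower genes, 5 had a value below 0 in dKO cells, against 46.4% of all genes, 3 were lower without overlap, against 5.73%, and 1, Slc39a10, passed the test.

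Tgfbr1 was at 39.1, 34.2 and 38.0 TPM in dKO vehicle samples and at 79.6, 66.8 and 70.5 TPM with 4-Cl-HIPP, which gave 0.94 on the log2 scale (SE 0.07, adjusted p = 1.47e-05, limma) beside 0.87 in wildtype cells. Mt2 was at 52.03, 40.3 and 49.1 against 95.1, 82.6 and 107 TPM (0.99, adjusted p = 0.00136), and Pmepa1 at 26.4, 15.0 and 21.0 against 72.3, 48.3 and 51.3 TPM (1.43, adjusted p = 0.0126, limma). In each of these 3 genes the dKO groups did not overlap either. The difference between the effects (wildtype minus dKO) was -0.07 for Tgfbr1 (95% confidence interval -0.28 to 0.14), 0.24 for Mt2 (-0.13 to 0.60) and 0.17 for Pmepa1 (-0.56 to 0.90), so a difference of some size between the genotypes is not excluded for any of them.

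The sterol list had a median log2 fold change of 0.23 in dKO cells, with 22 of 25 members above 0, against 51.9% of all genes. Of its members 3 passed the test there with higher values, against 0.403% of all genes. Hmgcs1 was at 43.6, 39.7 and 40.2 TPM against 59.3, 54.1 and 52.2 TPM there (0.41, adjusted p = 0.00973, limma). The interferon list had a median of -0.19 in dKO cells, with 9 of 70 members above 0, against 51.9% of all genes, and 0 past the test, against 0.501%. Ifi207 was at 9.66, 8.17 and 9.70 against 6.45, 6.48 and 5.76 TPM without overlap (-0.49, adjusted p = 0.306), and Oasl1 at 28.4, 27.4 and 29.6 against 24.0, 22.7 and 29.0 TPM with overlap (-0.17, adjusted p = 0.844, limma). Tnf, which had not passed in wildtype cells, was at 38.4, 37.6 and 42.8 against 27.4, 27.5 and 27.1 TPM in dKO cells (-0.52, adjusted p = 0.00652, limma).

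A response in one genotype and not in the other does not show that the responses differ, so the difference itself was tested. At an adjusted p-value below 0.05 it was 0 of 16383 genes (limma), with 734 genes at an unadjusted p-value below 0.05 (4.48%) and a smallest adjusted p-value of 0.163. The 3 smallest p-values belonged to 2900009J06Rik (1.98, adjusted p = 0.163, limma), Coro2a (-1.44, adjusted p = 0.253) and Timm17b (0.85, adjusted p = 0.253), the last a subunit of the mitochondrial import channel that had not passed in wildtype cells. Without wildtype vehicle replicate 2 there were 3 genes past the threshold, without wildtype 4-Cl-HIPP replicate 1 there were 2, and without dKO vehicle replicate 3, dKO 4-Cl-HIPP replicate 2 or dKO 4-Cl-HIPP replicate 3 there was 1. Of the 60 genes past the threshold in wildtype cells, 13 had an unadjusted p-value below 0.05 for the difference, 8 of the 53 higher and 5 of the 7 lower genes. These genes were chosen by the wildtype values that also enter the difference, which favours small p-values, so the count is a description. In 71 of 16383 genes (0.433%) the groups did not overlap in either genotype and lay in opposite directions.

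**Figure D5:**
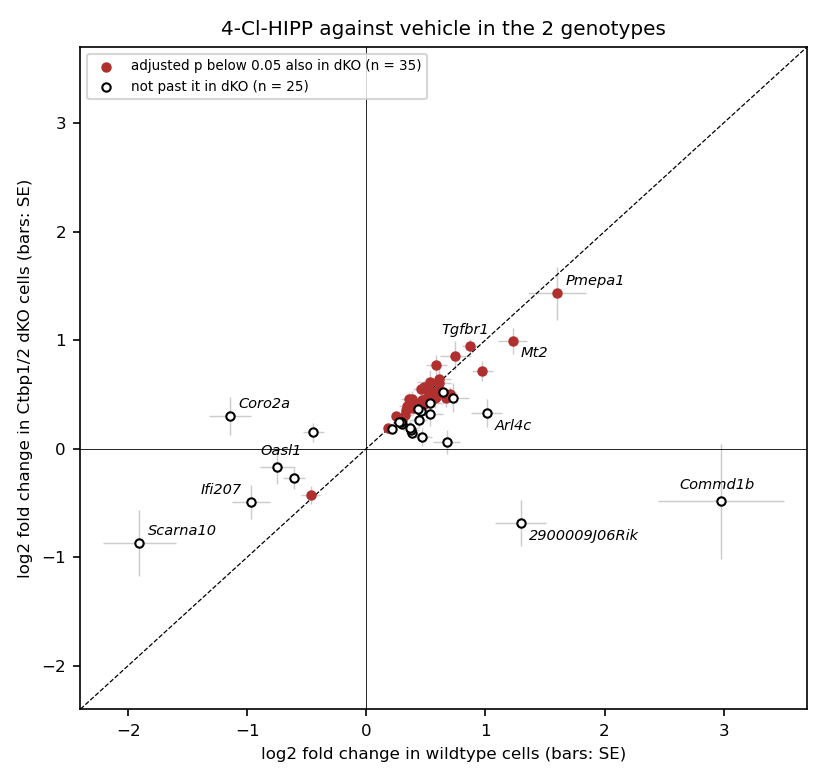
Log2 fold change of 4-Cl-HIPP against vehicle in wildtype cells (horizontal axis) and in Ctbp1/2 dKO cells (vertical axis) for the 60 genes with an adjusted p-value below 0.05 in wildtype cells, with bars of 1 SE and a dashed line where both are equal. The 35 filled red points also passed the test in dKO cells in the same direction and the 25 open points did not, and Coro2a, Commd1b, 2900009J06Rik and Gm11957 lie on opposite sides of 0 in the genotypes.

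MTOB, the keto acid from which this class of inhibitor was derived, had been given to wildtype cells at 1.5 mM for the same 4 h, against the same vehicle samples, so doses differ and the values are set side by side without a comparison. Pdcd1 had a log2 fold change of 1.50 with MTOB and 0.70 with 4-Cl-HIPP, Cpd of 1.76 and 0.59, Xylt1 of 0.87 and 0.67, and Cxcl16 of 0.91 and 0.38, each with an adjusted p-value below 0.05 with both compounds (limma). Tgfbr1 had -0.30 with MTOB (adjusted p = 0.0157) and 0.87 with 4-Cl-HIPP, Hmgcs1 had -0.32 (adjusted p = 0.00696) and 0.48, and Gm49339 had 2.04 (adjusted p = 1.6e-09, limma) and -0.61. For Pmepa1 the value with MTOB was 0.30 (adjusted p = 0.591), for Mt2 0.41 (adjusted p = 0.0591) and for Angptl2 0.32 (adjusted p = 0.0386, limma). Ifi207 was at 8.29, 8.06 and 5.76 TPM with MTOB, above the vehicle samples, whereas the 4-Cl-HIPP samples were below them, and Coro2a was at 0.669, 1.31 and 0.861 TPM, below the vehicle samples as with 4-Cl-HIPP.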

How the data were processed

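RNA-seq of J774.1 cells was analysed from 1 table of 18204 genes. The authors quantified libraries, labelled polyA RNA while the methods speak of rRNA depletion with an unstranded mRNA kit, with Salmon 1.9.0 against Gencode M28 (GRCm39) and summarised transcripts per gene. Per the file headers the values are scaled TPM per sample, which the authors computed, and each sample summed to 999808 to 999877 TPM over the listed genes. The deposited table also holds 1 pooled signal column, the authors' mean of normalized counts (DESeq2 1.44.0), and the authors' fold changes and adjusted p-values, which were not used. Sequencing depth is unknown from TPM, so no counting error is given.

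Groups followed the sample titles. Genes above the 10th percentile of the mean normalized count (0.222) were fitted as log2(TPM + 1) with the 6 group means over 18 samples and a variance trend on that mean (limma 3.58.1, R 4.3.3), with Benjamini-Hochberg adjustment, and calls needed an adjusted p-value under 0.05 and over 1.5-fold change. Confidence intervals are 95% from this fit. A fold change on this scale understates that of low genes. The method was tested on simulated data. The methods speak of biological triplicates and do not say whether these were separate cultures, so p-values measure the spread between these samples. Named genes were the called genes, the 10 of smallest p with a smaller fold, the 3 of smallest interaction p, list members past the threshold or marked as leading, of which those that are described are named, and the 10 of largest change without a call. These last 10 were taken among genes with a mean TPM of at least 5 and no overlap between the groups. The gene lists and this choice of comparison were made with earlier results of these data known. Gene positions, exons and 250-base upstream windows of the canonical start were taken from Gencode M39 on GRCm39. Alternatives were another pseudocount, filter, scaling, trend, replicate block or sample set, and leaving out each sample. Raw counts were not analysed here, and a few list members are not reported here by name.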

Additional observations from a re-analysis of the deposited data

Results flagged for a closer look

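In 3 of the genes chosen for naming, 2 of them chosen for a small p-value of this difference, the 4-Cl-HIPP samples lay wholly on one side of the vehicle samples in wildtype cells and wholly on the other side in dKO cells, as did 71 of all 16383 tested genes (0.433%). Coro2a was at 3.03, 1.897 and 4.01 TPM in vehicle and at 0.798, 0.630 and 0.847 TPM with 4-Cl-HIPP in wildtype cells, and at 0.753, 0.710 and 0.603 against 0.972, 1.13 and 1.13 TPM in dKO cells. The difference of its log2 fold changes was -1.44 (adjusted p = 0.253, limma). The dKO vehicle samples were at the level of the treated wildtype samples, and the wildtype vehicle samples lay above all other samples of these 4 groups.

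Timm17b was at 32.5, 34.1 and 33.1 TPM against 46.2, 51.6 and 39.1 TPM in wildtype cells and at 41.5, 39.2 and 42.7 against 28.2, 35.1 and 28.7 TPM in dKO cells, a difference of 0.854 (adjusted p = 0.253, limma). Gm49832 had a difference of 7.19 (adjusted p = 1, limma) and was listed at 0 in 1 wildtype vehicle, 1 dKO 4-Cl-HIPP and 1 wildtype MTOB sample while other samples of the same groups were above 100 TPM. None of the 3 differences passed the threshold over all genes, and their cause was not tested.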

How the results depend on the processing

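The count of 23 calls was 6 with a pseudocount of 5 (5 higher, 1 lower) and 15 with only the 6 compared samples in the fit (10 higher), of which 8 were among the 23. The 60 genes past an adjusted p-value of 0.05 became 24 with only these samples, 14 of them shared. With the replicate block 3 genes were called lower and 35 passed at any fold. The correlations of deviations of same-numbered samples were 0.0069, -0.0545 and 0.0607, below the limit of 0.1 set for pairing. Those of samples of different number ranged from -0.128 to 0.134, the highest of them above the limit. These correlations across genes cannot exclude that samples of one number were prepared together, which was not tested. Leaving out 1 sample at a time gave 9 to 23 calls, 7 to 20 higher and 0 to 6 lower, 19 to 44 genes at any fold, and 0 to 3 genes for the difference between genotypes. The fold change of each of the 60 genes kept its sign under the 15 alternatives, of which 14 gave a value for Arl4c, Gm11957, Scarna10 and 2900009J06Rik. Angptl2, Tgfbr1, Mt2 and Fads1 kept their side of the threshold in all of them. A trend offset of 0.5, which was chosen after seeing the data, gave 23 calls and 56 genes at any fold. With median-of-ratios scaling the median of all genes was 0 in place of 0.01. The depth of each library is unknown, and the calls of Scarna10 and 2900009J06Rik rest on mean normalized counts of 0.431 and 0.583. Every comparison is limited by 3 samples a group, and the cause of these changes was not tested beyond the smaller number of samples where samples were left out.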
